A study of Mus musculus with 6 samples.

Results

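The 78 mitochondrial ribosomal protein genes described here were all protein-coding genes of the count table whose symbol begins with Mrpl or Mrps followed by a number. They were 49 genes of the large subunit (Mrpl) and 29 of the small subunit (Mrps), out of 49315 genes in the table. A further 5 rows with such symbols were processed pseudogenes and were left out. The rule itself reads only symbols and gene types. RNA was sequenced from 3 MNRR1 knockout (KO) libraries and 3 wild-type (WT) libraries of the mouse ovarian cancer cell line TKO (triple knockout), so both groups carry the background of that line, whose knocked-out genes the labels do not name. MNRR1 is the protein of Chchd2 and acts in mitochondria and in the nucleus. The descriptions of the KO samples carry 1 clone name, so a difference between KO and WT is a difference between that clone and the WT cells. In bulk RNA, fewer cells of a type and less RNA per cell cannot be told apart.

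The mitochondrial ribosome (mitoribosome) makes the few proteins that mitochondrial DNA encodes, all of them subunits of the respiratory chain and ATP synthase. Its RNA comes from mitochondrial DNA, while its proteins are encoded in the nucleus, made in the cytosol and imported. Some of these proteins descend from bacterial ribosomal proteins, and others are found in mitochondria alone. The large subunit joins amino acids and the small subunit reads the messenger RNA.

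Depth was 33226463 to 40983999 counts per library. The members made up 0.305% to 0.346% of all KO counts and 0.351% to 0.354% of all WT counts. Chchd2, the targeted gene, had 581 to 717 counts per KO library against 11824 to 13506 per WT library. Transcripts of mitochondrial DNA, without the ribosomal RNAs mt-Rnr1 and mt-Rnr2, made up 2.03% to 2.18% of the KO libraries and 2.32% to 2.54% of the WT libraries. Levels are given as CPM, counts scaled to library size. Cell type markers differed between the clone and WT. The 6 epithelial markers summed to 1110 to 1146 CPM in KO and 1427 to 1639 CPM in WT libraries: Krt7 (81.3 against 299 CPM on average), Krt8 (283 against 480) and Krt18 (275 against 402) fell, Krt19 (481 against 354) rose, and Epcam and Cdh1 were low in both, at no more than 2.43 and 0.581 CPM. Of the 4 ovarian or Mullerian markers, summing to 779 to 804 CPM in KO and 980 to 1031 CPM in WT, Msln fell (108 against 281 CPM), Wt1 (677 and 719) and Amhr2 (3.06 and 3.02) did not pass, and Pax8 was near 0. The 4 fibroblast markers summed to 18.5 to 23.8 CPM in KO and 139 to 149 CPM in WT: Col1a1 (10.3 against 134 CPM) and Thy1 (0 counts in every KO library, 2.28 CPM in WT) fell, Pdgfrb (4.75 against 1.08) rose and Pdgfra did not pass. Thy1 passed the filter on low counts only through the WT libraries, so its call rests on the values that let it be tested. The 4 leukocyte markers summed to no more than 0.620 CPM in any library, with Cd3e at 0 counts, and the 2 endothelial markers to no more than 0.453 CPM. The part of these differences in the change of the members was not tested. KO replicate 2 lay nearer to the WT libraries (correlation of log CPM 0.967 to 0.970) than KO replicates 1 and 3 did (0.952 to 0.960).

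The stretches before the start of genes with large falls are shown as letters, though the motif counts below come from wider windows. Each is RefSeq sequence of GRCm38.p6, written 5′ to 3′ in the direction of the gene, and holds 150 bases before a start given by RefSeq, ending 12 bases before it for Mrpl33 and 24 for Mrpl12. For Mrpl33 the RefSeq start lies inside the gene as GENCODE draws it, which begins further upstream, so the stretch is not next to the GENCODE start given below. Capitals mark letters of the motifs CCGGAAG (the ETS site read by GABP), AAGATGG (YY1), TGCGCA (a short NRF1 motif) and CACGTG (the E-box read by Myc proteins), on either strand. Mrpl33 and Mrps16 are counted below as holders of CCGGAAG, which lies outside the letters shown for them.
Mrpl33 (chr5:31613789-31613938, plus strand): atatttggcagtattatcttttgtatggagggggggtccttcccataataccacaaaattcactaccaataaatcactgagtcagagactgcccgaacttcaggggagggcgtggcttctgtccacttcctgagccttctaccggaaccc
Mrpl52 (chr14:54426759-54426908, plus strand): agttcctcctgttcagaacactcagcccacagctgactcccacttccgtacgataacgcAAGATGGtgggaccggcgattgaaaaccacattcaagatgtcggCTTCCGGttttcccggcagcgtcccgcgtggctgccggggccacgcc
Mrpl20 (chr4:155802728-155802877, plus strand): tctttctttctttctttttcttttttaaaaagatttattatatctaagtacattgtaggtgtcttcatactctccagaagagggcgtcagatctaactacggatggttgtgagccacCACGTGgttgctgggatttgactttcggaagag
Mrpl12 (chr11:120484463-120484612, plus strand): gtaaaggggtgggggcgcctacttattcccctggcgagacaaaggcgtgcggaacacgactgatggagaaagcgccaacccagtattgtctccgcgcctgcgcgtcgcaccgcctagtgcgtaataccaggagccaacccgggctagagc
Mrps16 (chr14:20393635-20393784, minus strand): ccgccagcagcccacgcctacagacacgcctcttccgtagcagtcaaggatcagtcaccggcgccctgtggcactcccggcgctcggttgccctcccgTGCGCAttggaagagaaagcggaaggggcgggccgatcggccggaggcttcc

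Promoter windows from 250 bases before to 50 bases after a start were found for 69 of the 78 members by symbol. The others were Mrpl4, Mrpl13, Mrpl15, Mrpl19, Mrpl38, Mrpl54, Mrps28, Mrps34 and Mrps35. CCGGAAG stood in at least 1 window of 26 of the 69 members (37.7%), against 12.9% of the protein-coding genes with such a window. TGCGCA stood in 21 members (30.4%, against 11%), AAGATGG in 13 (18.8%, against 7.18%) and the full NRF1 site, which holds TGCGC and so can overlap the short motif, in 3 (4.35%, against 1.47%). The E-box CACGTG was found in 5 members (7.25%, against 8.91%), the Sp1 motif GGGCGG in 34 (49.3%, against 49.2%), and TGGGAA, the core of the RBPJ site, in 20 (29.0%, against 27.4%). The ATF4 motif TGATGNAA was in 0 of the 69 members and in 4.13% of genes. Both strands were searched, and a match is only a match of letters.

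Members with CCGGAAG had a median log2 change of -0.24 and those without it -0.19. Of the members that hold it, 69.2% were lower in KO at the threshold given below, against 51.2% of those that do not. The E-box had the widest gap, with 80% lower among 5 holders and 56.2% among the rest. The shares were 61.9% and 56.2% for TGCGCA, 61.5% and 57.1% for AAGATGG and 66.7% and 57.6% for the full NRF1 site. For the RBPJ core (50% and 61.2%) and the Sp1 motif (52.9% and 62.9%) the share among holders was the smaller one, and none of these differences was tested.

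Transcripts of the mitoribosome were mostly lower in KO cells, by small amounts, and in both subunits. All 78 members passed the filter on low counts. Of these, 44 (56.4%) fell and 3 (3.85%) rose at an adjusted p under 0.05 in edgeR's quasi-likelihood test, and 31 did not pass. The background is 16033 tested genes, of which 55.7% were called at all, 27.8% were called lower and 27.8% higher. Among tested genes with a mean of at least 10 CPM, 36.9% were lower and 29.5% higher. The median log2 change of the members was -0.22, with quartiles of -0.37 and -0.05. The median was 0.01 over all tested genes and -0.05 over those with a mean of at least 10 CPM. The fitted change was below 0 for 63 of 78 members, for 49.5% of all tested genes and for 55.0% of those of at least 10 CPM. These shares are relative to the TMM scaling of libraries (trimmed mean of M values). With scaling by library totals, which moved the median of all genes to 0.13, 26 members fell and 9 rose and their median was -0.10, and 5771 of all genes were then higher and 3294 lower. With upper-quartile scaling 33 members fell and 7 rose, beside 3927 of all genes lower and 4993 higher.

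**Figure D1:**
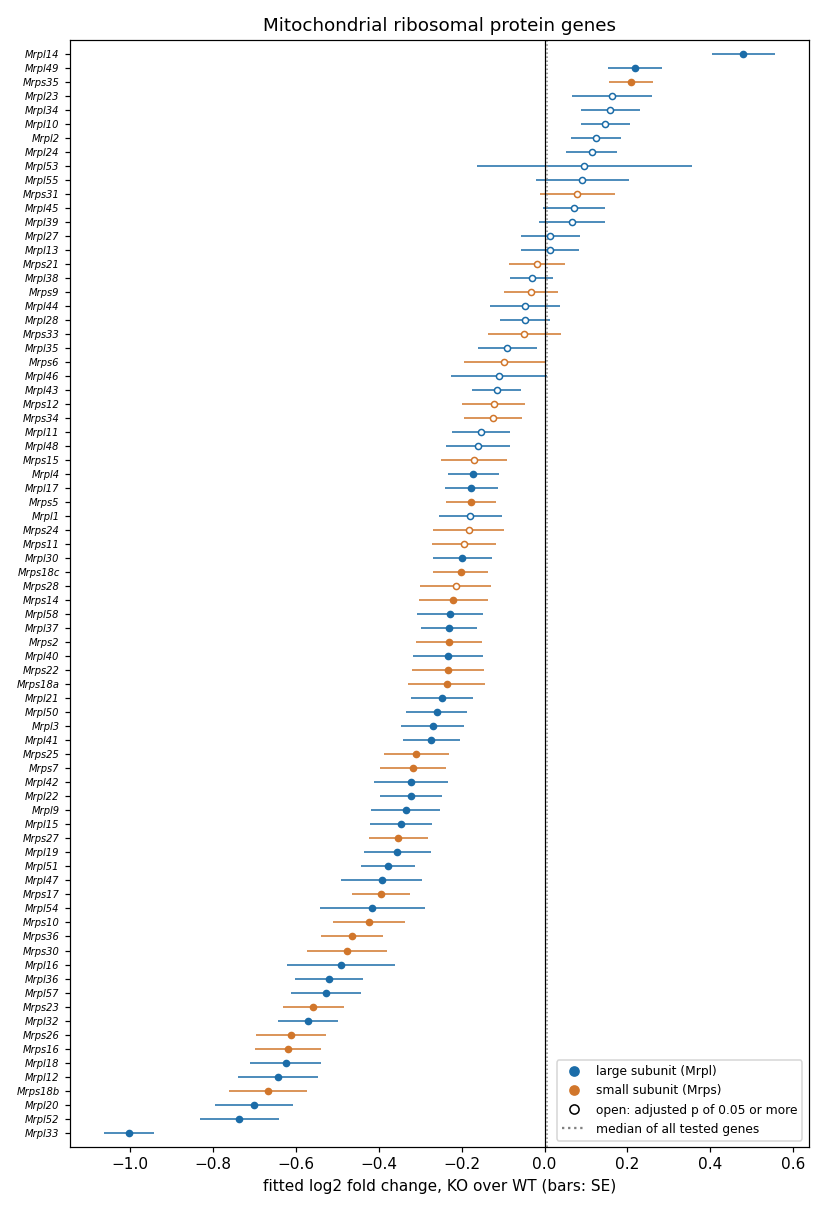
Fitted log2 change of each of the 78 members, KO over WT (x axis, bars are standard errors), ordered by value, with large subunit genes in blue and small subunit genes in orange. Filled points passed the test, and the values run from -1.002 (Mrpl33) to 0.48 (Mrpl14).

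All 3 KO libraries lay below all 3 WT libraries for 48 members, or 61.5%, where the background is 31.9% of the tested genes. All 3 lay above for 7 members, or 8.97%, against 32.1%. Among the 9008 tested genes with a mean of at least 10 CPM, all 3 lay below for 3712 and above for 2974. A fall of at least 0.5 on the log2 scale that passed the test was seen for 12 members, or 15.4%, near the background of 13.6% of the tested genes. A rise of that size was seen for 0 members, against 17.1%. Of the 9008 genes of at least 10 CPM, 1131 (12.6%) fell and 1085 rose by that size and passed the test. These counts by size hold for TMM scaling. Mrpl14 rose by 0.53 with upper-quartile scaling and by 0.60 with library totals, and passed the test in both. With library totals some falls no longer reached 0.5, such as that of Mrpl32 at -0.45. With no demand on size, DESeq2 called 3 members higher and limma voom 4.

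Summed over the large subunit genes, expression was 2014, 2288 and 1943 CPM in KO replicates 1 to 3 and 2470, 2475 and 2457 CPM in WT replicates 1 to 3. For the small subunit the sums were 990, 1108 and 947 CPM in KO and 1237, 1216 and 1196 CPM in WT. In each subunit every KO library was below every WT library, and KO replicate 2 was the highest of the KO libraries. The ratio of large to small subunit sums was 2.05 ± 0.0158 in KO and 2.03 ± 0.0288 in WT (SD, n = 3 each). Its values overlapped between genotypes, at 2.03, 2.06 and 2.05 in KO and 2.00, 2.04 and 2.05 in WT. The balance of the 2 subunits at the level of transcripts thus did not set the genotypes apart.

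**Figure D2:**
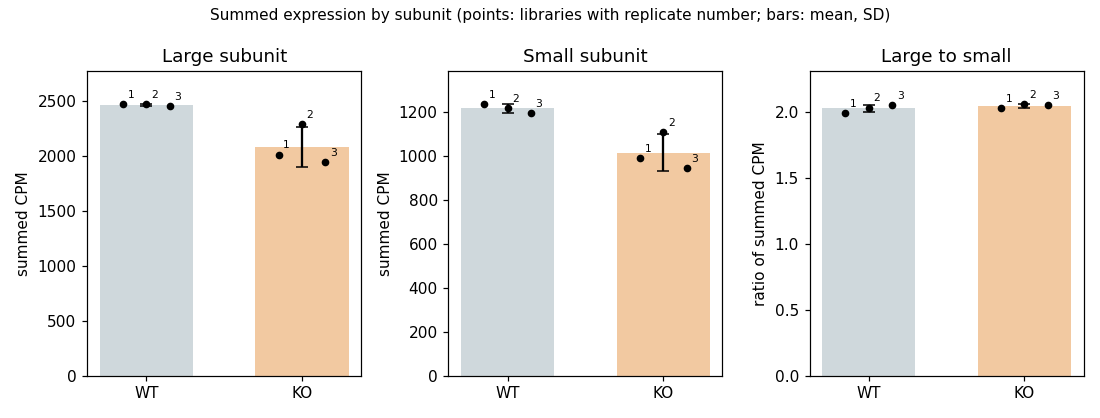
Summed TMM-scaled CPM of the 49 large and 29 small subunit genes and the ratio of these sums (y axes) in WT and KO, with libraries as numbered points, means as bars and SD as error bars. Both sums are lower in the KO libraries, while the ratios overlap.

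By symbol, 27 of 49 large subunit genes fell and 2 rose, and 17 of 29 small subunit genes fell and 1 rose. The median log2 changes were -0.20 and -0.22, a difference of 0.02 where the spread of this difference between libraries was 0.018 (SD). The large subunit genes were spread more widely, from -1.002 to 0.48 with an SD of 0.29 across genes, than the small subunit genes, from -0.67 to 0.21 with an SD of 0.21. Fitted changes were above 0 for 13 large and 2 small subunit genes. Symbols do not always give the place of a protein, because Mrps18a and Mrps30 encode proteins found in the large subunit, and Mrps36 encodes a protein of the 2-oxoglutarate dehydrogenase complex. With proteins assigned by their place, 29 of 51 large subunit genes and 14 of 26 small subunit genes fell, with medians of -0.23 and -0.21. The order of the medians thus turned with the assignment.

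Ribosomal protein names mark those shared with bacteria and those given a mitochondrial name of their own. The second kind includes Mrps18a and Mrps18b, although both are relatives of bacterial S18. Of 46 genes of the first kind 25 fell and 1 rose, with a median log2 change of -0.20. Of 31 genes of the second kind 18 fell and 2 rose, with a median of -0.23, and the difference between the kinds was not tested. All 16 small subunit genes of the bacterial kind had fitted changes below 0, of which 8 passed the test. The large subunit genes of that kind held both the greatest fall and the greatest rise.

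Among large subunit genes, Mrpl33 had the greatest fall. It encodes a short protein related to bacterial L33 and lies on chromosome 5 (GRCm38, positions 31596935 to 31664384, plus strand). Its level was 48.6, 51.5 and 46.97 CPM in KO replicates 1 to 3 and 102, 100.3 and 92.9 CPM in WT replicates 1 to 3. Every KO library was at about the same level, far from WT. The log2 change was -1.002 (SE 0.06, adjusted p = 5.09e-07).

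Mrpl52, for a mitochondria-specific protein (chromosome 14, positions 54426909 to 54429756), was at 13.5, 15.2 and 12.01 CPM in KO and 21.5, 23.3 and 23.1 CPM in WT. Its log2 change was -0.74 (SE 0.10). Mrpl20, related to a bacterial protein that binds ribosomal RNA early in assembly (chromosome 4, positions 155802878 to 155809975), was at 40.4, 50.2 and 37.7 CPM in KO and 71.1, 70.2 and 67.4 CPM in WT. For Mrpl20 the log2 change was -0.70 (SE 0.09), and the groups were apart although KO replicate 2 stood above the other KO libraries.

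Mrpl12 encodes the stalk protein that brings translation factors to the ribosome (chromosome 11, positions 120484613 to 120489065). It was at 70.3, 89.4 and 67.4 CPM in KO and 113, 121 and 121 CPM in WT, a log2 change of -0.64 (SE 0.10, adjusted p = 2.83e-04). Mrpl18, whose protein lies in the central protuberance, was at 68.1, 82.7 and 63.5 CPM in KO and 111, 112 and 107 CPM in WT. In both genes KO replicate 2 was again the highest KO library and still below WT.

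The other large subunit genes past a fall of 0.5 were Mrpl32 (-0.57), Mrpl57 (-0.53) and Mrpl36 (-0.52). The protein of Mrpl32 is cut by the m-AAA protease before it joins the ribosome, Mrpl36 encodes a very small protein related to bacterial L36, and Mrpl57 encodes a mitochondria-specific protein. In these 3 genes the KO libraries were close together, at 19.3 to 21.3 CPM for Mrpl32, 12.99 to 14.03 CPM for Mrpl57 and 15.3 to 17.96 CPM for Mrpl36. The WT libraries were at 28.7 to 31.5, 18.5 to 21.02 and 22.97 to 24.8 CPM, with no overlap.

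Only Mrpl14 and Mrpl49 rose among large subunit genes. Mrpl14, related to bacterial L14 at the face that meets the small subunit (chromosome 17, positions 45686322 to 45698495), was at 28.4, 28.9 and 26.6 CPM in KO and 18.5, 20.9 and 20.7 CPM in WT. Its log2 change was 0.48 (SE 0.08, adjusted p = 3.21e-04), and the groups did not overlap. Tmem63b, on the opposite strand, covers 11.2% of the exon bases of Mrpl14, and the strand setting is not known. Mrpl49, for a mitochondria-specific protein, was at 52.7, 58.1 and 54.6 CPM in KO and 47.1, 45.01 and 50.1 CPM in WT, a log2 change of 0.22. The call of Mrpl49 was lost without WT replicate 1 (adjusted p = 0.0566) or WT replicate 2 (0.0804), with 9.52e-04 as the lowest value of any alternative.

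Among small subunit genes, Mrps18b had the greatest fall. It is 1 of 3 relatives of bacterial S18 (chromosome 17, positions 35910379 to 35916389, minus strand) and was at 37.6, 46.7 and 35.3 CPM in KO and 65.3, 64.4 and 60.3 CPM in WT. The log2 change was -0.67 (SE 0.09, adjusted p = 1.74e-04). An antisense gene covers 30.5% of its exon bases, and no source used here gives the strand setting.

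The changes of its relatives were nearer to 0. Mrps18c was at 23.8, 25.6 and 24.3 CPM in KO and 27.7, 28.7 and 28.4 CPM in WT, a log2 change of -0.20 (adjusted p = 0.0217). Mrps18a, whose protein sits in the large subunit, was at 21.4, 26.5 and 22.02 CPM in KO and 29.2, 27.3 and 25.8 CPM in WT, a log2 change of -0.24 (adjusted p = 0.0470). The groups overlapped for Mrps18a and not for Mrps18c. Without any 1 of the libraries other than KO replicate 2 the call of Mrps18a was lost, and that of Mrps18c was lost without KO replicate 1 or any 1 WT library. Both calls were also lost with upper-quartile scaling and library totals, and that of Mrps18a with the 1 CPM filter and in limma voom. The adjusted p ran from 6.57e-04 to 0.262 for Mrps18a and from 0.00549 to 0.298 for Mrps18c. The differences in change between the 3 genes were not tested.

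Mrps16, a disease gene of mitochondrial translation in humans (chromosome 14, positions 20389304 to 20393634, minus strand), was at 13.6, 13.6 and 12.5 CPM in KO and 20.6, 20.6 and 19.6 CPM in WT. Its log2 change was -0.62 (SE 0.08, adjusted p = 8.00e-05), with tight groups. Mrps26 and Mrps23, for mitochondria-specific proteins, were at -0.61 and -0.56. Mrps10, in the head of the subunit, was at -0.42, and Mrps17, related to bacterial S17, was at -0.39. All 4 of these genes passed the test with no overlap between genotypes.

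Mrps35, for a protein of the small subunit head, was the single small subunit gene that rose. It was at 59.9, 60.5 and 59.6 CPM in KO and 51.8, 50.7 and 53.3 CPM in WT, a log2 change of 0.21 (SE 0.05, adjusted p = 0.00628). The KO values lay close together and above all WT values. Mrps30, with a protein of the large subunit, fell from 39.2 ± 1.36 to 28.2 ± 4.16 CPM, and Mrps36 fell from 35.2 ± 2.51 to 25.5 ± 1.44 CPM (SD, n = 3 each). Mrpl58, which encodes a peptidyl-tRNA hydrolase built into the large subunit, fell from 28.3 ± 0.648 to 24.1 ± 2.24 CPM, a log2 change of -0.23. The call of Mrpl58 was lost without KO replicate 1, KO replicate 3 or any 1 WT library, and with either other scaling (upper quartiles, library totals), in a range of adjusted p from 0.00335 to 0.252.

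**Figure D3:**
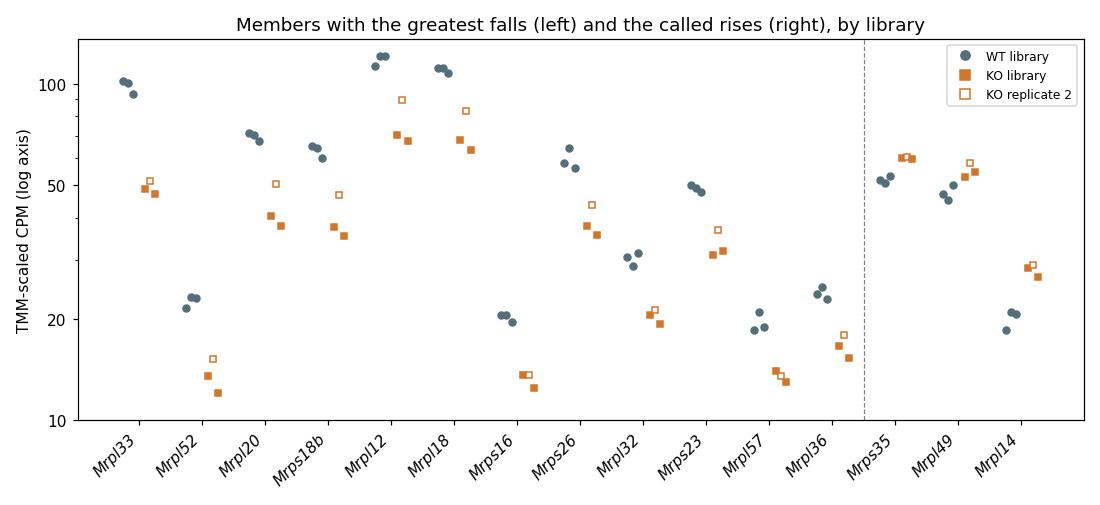
TMM-scaled CPM (log axis) in each library for the 12 members that fell by at least 0.5 on the log2 scale and, right of the dashed line, the 3 members that rose. Grey circles are WT and orange squares KO libraries, and the open square, KO replicate 2, lies above the other KO libraries in most of the genes and on the KO side of the WT values in each.

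KO replicate 2 stood apart across the members. It was the highest of the 3 KO libraries for 66 of 78 members, and KO replicate 3 was the lowest for 61. Relative to the WT mean, the median log2 level of the members was -0.25, -0.10 and -0.34 in KO replicates 1 to 3, and between -0.02 and 0.01 in WT replicates. The median coefficient of variation of a member was 9.26% in KO and 3.47% in WT. Without KO replicate 2, 52 members fell and 4 rose and the median log2 change was -0.28, while 5064 of all genes were called lower, against 4462 with all libraries. Without KO replicate 1 or 3, 29 and 34 members fell, with medians of -0.19 and -0.15, and 3798 and 4226 of all genes were lower, so the counts of members moved in the same direction as those of all genes.

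Levels per kilobase, which allow genes to be compared, were taken as CPM over the length of the longest principal transcript. In WT libraries the members had a median of 27.2 CPM per kilobase, with quartiles of 15.9 and 45.2. The highest were Mrpl33 at 205 ± 9.81, Mrpl20 at 91.0 ± 2.52 and Mrpl18 at 90.4 ± 1.92 CPM per kilobase (SD, n = 3). In KO libraries they were at 103 ± 4.84, 56.0 ± 8.60 and 58.6 ± 8.22, and all 3 were among the 12 greatest falls. The order rests on the length used: over all annotated exons, Mrpl33 ranked 49, Mrpl20 ranked 5 and Mrpl18 ranked 1 of 78. The lowest were Mrps16 and Mrpl57, at 7.89 ± 0.213 and 6.77 ± 0.470 CPM per kilobase, and Mrpl53. Mrps16 and Mrpl57 were also among the 12 greatest falls. Mrpl53 had 26 to 44 counts in any library, and 88.0% of its exon bases are shared with another protein-coding gene on the same strand, so its level is uncertain. Exons of another gene cover at least 1 base of 33 members.

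The size of the change differed along the genome. The members lie on 17 chromosomes. All 5 on chromosome 13 (Mrpl32, Mrpl36, Mrps27, Mrps30 and Mrps36) and all 3 on chromosome 14 (Mrpl52, Mrpl57 and Mrps16) fell, chromosomes that were singled out after these values were seen. All members also fell on chromosomes 2 (4 of 4), 9 (3 of 3) and 10 (2 of 2), where the other genes had medians of 0.02, -0.01 and -0.01. The 8 members on chromosomes 13 and 14 had a median log2 change of -0.52. The 70 members on all other chromosomes had a median of -0.19, with 36 lower and 3 higher. Of the other tested genes of chromosome 13, 48.2% were lower and 13.5% higher, with a median of -0.27, and of those of chromosome 14, 35.7% were lower and 23.3% higher, with a median of -0.09. Chromosome 5, which holds Mrpl33, had 38.2% of its other genes lower (median -0.15). Among the 17 chromosomes with members, 7 and 8 had the highest medians over their other genes, at 0.15 and 0.08, where 1 of 6 and 0 of 2 members fell.

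For each member, the median change of up to 20 tested neighbours, 10 on each side and none of them members, was set beside its own. The neighbour medians had a median of 0.03, and 64 of 78 members were below the median of their neighbours. Over all 78, the median of member minus neighbours was -0.28. Across the 78 members, the change of a member and that of its neighbours had a Pearson correlation of 0.42 and a Spearman correlation of 0.40, as a description, since all values come from the same 6 libraries and some windows overlap. Neighbours were lower as well around Mrps36 (median -0.40), Mrpl57 (-0.37), Mrpl36 (-0.35) and Mrpl32 (-0.29). They were not around Mrpl52 (0.01) and Mrps16 (0.07), while those of Mrpl33 were at -0.21 where the gene itself was at -1.002. Around Mrpl14 the neighbours were at 0.27. Other members did not follow their neighbours: Mrpl1, at -0.18 and not called, had the lowest neighbours of all members (-0.49), and Mrpl39 was at 0.07 beside neighbours at -0.22. The part of chromosomal position in these changes was not tested.

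**Figure D4:**
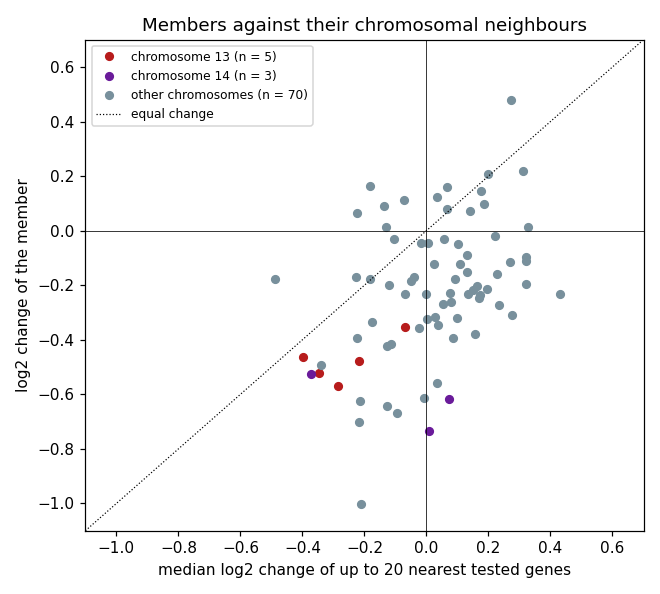
Log2 change of each member (y axis) against the median log2 change of up to 20 nearest tested genes (x axis), with members of chromosome 13 in red and of chromosome 14 in purple. The dotted line marks equal change, and 64 of 78 members lie below it.

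Some members start close to the start of a gene on the other strand, which does not by itself show a shared promoter. For 33 members another tested protein-coding gene on the opposite strand started within 1000 bases in either direction, and Mrpl46 and Mrps11 were each other's partner. The share of all tested genes with such a partner was not counted. Of the 20 members with such a partner that fell, 7 had a partner that also fell and 5 a partner that rose. Over all 33 members, 8 had a partner that fell and 9 a partner that rose. Of all tested genes 27.8% fell and 27.8% rose, and a difference from these shares was not tested. The partners had a median log2 change of 0.04, and the Pearson correlation of a member with its partner was 0.45 across 32 distinct pairs, as a description. Mrpl14 and its partner Tmem63b rose by 0.48 and 0.50. Mrps18b and Ppp1r10 were at -0.67 and -0.24, and Mrpl18 and the chaperonin gene Tcp1 at -0.62 and -0.41. In contrast Mrpl50 was at -0.26 beside Zfp189 at 1.01, and Mrps5 at -0.18 beside Zfp661 at 1.65. Without knowledge of the strand setting, reads from overlapping ends of such pairs cannot be told apart. These pairs were named after their values were seen.

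Of 5 genes for mitoribosome proteins that lack an Mrp symbol, 1 fell and 0 rose. Chchd1, a small subunit protein with the same kind of CHCH fold as MNRR1, was at 32.5, 35.6 and 28.1 CPM in KO and 39.3, 39.1 and 38.9 CPM in WT, a log2 change of -0.29 (adjusted p = 0.0119). Dap3 (0.09) and Ptcd3 (-0.13), of the small subunit, and Gadd45gip1 (-0.15), of the large subunit, did not pass, nor did Aurkaip1 at 0.02. Dap3 passed at adjusted p = 0.00197 where library totals set the scale and at 0.0198 where upper quartiles did (highest 0.385). Without KO replicate 2, Ptcd3 passed at 0.00575 (highest 0.833) and Gadd45gip1 at 0.0276 (highest 0.718), and Gadd45gip1 also passed without WT replicate 2 (0.0453). Chchd1 did not pass under library totals (0.0861, lowest 1.32e-04).

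Factors that build the mitoribosome went both ways, with 10 of 28 (35.7%) lower and 6 (21.4%) higher and a median log2 change of -0.12. Over all tested genes 27.8% were lower and 27.8% higher, and among those of at least 10 CPM 36.9% and 29.5%. Gtpbp10, a GTPase of large subunit maturation, fell from 69.1 to 35.3 CPM on average, a log2 change of -0.97 (SE 0.07). Rcc1l and Fastkd2, which act on the RNA of the large subunit, were at -0.73 and -0.60, whereas the pseudouridine synthase gene Rpusd3 rose by 0.66. Among mitochondrial translation factors, 5 of 17 (29.4%) were lower and 1 higher, with a median of -0.08, a share near the background of 27.8%. The 4 called genes with the greatest change were the elongation and recycling factor genes Gfm2 (-0.28), Tufm (-0.26) and Mrrf (-0.25) and the formyltransferase gene Mtfmt (-0.27). Under library totals the calls of Gfm2 (0.0588, lowest 0.00156), Mtfmt (0.0872, lowest 0.00260) and Tufm (0.0580, lowest 1.12e-04) were lost. The call of Mrrf was lost with both of these scalings (totals, upper quartiles) and also without KO replicate 1 or 3 or WT replicate 1 or 3, in a range of adjusted p from 7.11e-05 to 0.170.

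Of 9 genes for transcription and RNA processing in mitochondria, 4 (44.4%) fell and 2 (22.2%) rose, beside 27.8% lower and 27.8% higher of all tested genes. Elac2 and Ptcd2, for tRNA end processing and RNA handling, were at -0.63 and -0.63, and Mterf1a was at -0.67, while its relative Mterf2 rose by 0.66. The call of Mterf1a was lost under library totals and without KO replicate 1 or 3 or WT replicate 1 or 2, in a range of adjusted p from 7.54e-04 to 0.114. The mitochondrial ribosomal RNA genes mt-Rnr1 and mt-Rnr2 were not analysed here.

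Of 12 genes for nuclear regulators linked to mitochondrial genes, 8 (66.7%) fell and 1 (Ppargc1a) rose, with a median log2 change of -0.35. Of all tested genes, 27.8% were lower and 27.8% higher. Mycn, a transcription factor gene of the Myc family, was at 392, 458 and 321 CPM in KO and 978, 951 and 901 CPM in WT, a log2 change of -1.27 (SE 0.11). Its KO libraries stood in the same order as the summed mitoribosomal transcripts, with replicate 2 highest and replicate 3 lowest, and its part in them was not tested. This order was not particular to Mycn: Myc and Pprc1 had it too, and KO replicate 2 lay nearest to WT over all tested genes. Myc itself averaged 7.36 CPM over KO libraries and 15.3 CPM over WT libraries, a log2 change of -1.05, and its call was lost with no filter (adjusted p = 0.0665, the highest of a range from 1.97e-05). The coactivator gene Pprc1 fell by 0.91 on the log2 scale. Ppargc1a, for the coactivator PGC-1 alpha, was counted 24, 12 and 18 times in the KO libraries and 0, 0 and 1 times in the WT libraries. That makes a 51.2-fold ratio with a 95% interval, for counting error only, of 8.81 to 2060, at a mean KO level of 0.482 CPM. Ppargc1a passed the filter on low counts only through the KO libraries, so its call rests on the values that let it be tested. The 1 CPM filter left it out. Of the genes for factors whose motifs were searched above, named for that reason after their values were seen, Rbpj (-0.56), Gabpb1 (-0.46) and Nrf1 (-0.32) fell, while Gabpa (0.07), Gabpb2 (0.05) and Yy1 (-0.01) did not pass. The genes for Sp1 and ATF4 were not among the 12 regulators, and their values are not given. Mean levels in KO and WT, not per length, were 224 and 216 CPM for Gabpb2, 35.1 and 48.4 CPM for Gabpb1.

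Set side by side with the mitoribosome, 38 of 77 (49.4%) cytosolic ribosomal protein genes fell and 2 (2.60%) rose, with a median log2 change of -0.15. Of the 13 protein genes of mitochondrial DNA, which the mitoribosome translates, 9 (69.2%) fell and 0 rose, with a median of -0.45. Over all tested genes 27.8% were lower and 27.8% higher, and among those of at least 10 CPM 36.9% and 29.5%. All of these values come from the same 6 libraries and hold for TMM scaling. The counts of these 2 sets and of the gene lists above were not repeated with other scalings, under which those of the members changed.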

How the data were processed

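Raw counts of reads per Ensembl gene were deposited by the authors as whole numbers, unnormalized. STAR 2.5.2b, Subread 1.5.2, Trimmomatic 0.36, bcl2fastq 2.17 and DESeq2 are named in the submitters' processing notes, with GRCm38 as the build. Not given in the sources used here are the strand setting, the annotation release and how reads of several origins were counted. Symbols, positions and lengths came from GENCODE M21 of GRCm38, to which 49056 of 49315 gene IDs matched. Promoter windows are RefSeq's of GRCm38.p6.

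The filterByExpr rule (minimum count 10) kept 16033 genes. After TMM scaling, a robust quasi-likelihood model with genotype as its only term was fitted in edgeR 4.0.16 (R 4.3.3). Benjamini-Hochberg adjustment ran over all tested genes, and the threshold was 0.05. Standard errors are the log2 change over the root of the F statistic. Levels are TMM-scaled CPM, and the code was tested on simulated data. The labels do not say that replicates are separate cultures, so p-values reflect only how far these samples spread, which may be technical.

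Alternatives were other scalings, filters, DESeq2 1.42.0, limma voom (limma 3.58.1), the replicate number as a block, the omission of each library, subunits assigned by structure and, chosen after seeing the data, the omission of members overlapping other genes and another gene length. The members and lists were chosen with earlier results of these data known. Named were, per subunit and direction, up to 8 called members with the greatest change, all members past 0.5 in size, the 3 highest and 3 lowest per kilobase, Mrps18a, Mrps18b, Mrps18c, Mrps30, Mrps36, Mrpl58, Chchd2, the 5 mitoribosome proteins without an Mrp symbol, and up to 4 called genes of each other list. Chromosomal neighbours and partner genes fall outside this rule.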

Additional observations from a re-analysis of the deposited data

How the results depend on the processing

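With scaling by library totals, 26 members were called lower and 9 higher (large subunit 15 and 8, small subunit 11 lower), the medians of all members, the large and the small subunit were -0.10, -0.079 and -0.10, and the median of all genes was 0.13. With upper quartiles 7 members and 6 large subunit genes were higher, and 11 small subunit genes were lower. The large minus small median turned from 0.02 to -0.019 with subunits assigned by structure and was -0.0019 without the members of which at least 10% of exon bases overlap another gene, where 1 large subunit gene was higher. Leaving out 1 library each gave 29 to 52 members lower and 2 to 4 higher, 17 to 33 large subunit genes lower and 1 to 3 higher, 11 to 19 small subunit genes lower and 1 higher, and a large minus small median of 0.0016 to 0.029. Members called lower numbered 29 without KO replicate 1, and large subunit genes 17. Small subunit genes called lower numbered 11 without WT replicate 1, and 1 large subunit gene was higher without WT replicate 1 or 2. The median of all genes was 0.058 with upper quartiles, -0.00078 with DESeq2 size factors, -0.00049 in DESeq2 and 0.00074 to 0.017 with 1 library left out. The cause was not tested. Over 14 settings, 26 of the 44 members that fell and 2 of the 3 that rose kept their call, and all 47 kept their direction. Of the other named values, Aurkaip1 turned to -0.00076 without KO replicate 2 and -0.028 without WT replicate 3. With 1 library left out Aurkaip1 ranged from -0.028 to 0.042. It was higher with upper quartiles (0.072) and library totals (0.14), and did not pass in either. Mrpl53 also turned, to -0.042 without KO replicate 3 and -0.023 without WT replicate 1 (range -0.042 to 0.23). With the replicate number as a block, 47 members were lower and 3 higher. Same-numbered libraries had deviations correlated at -0.059, 0.051 and 0.028, so the numbers were not taken as pairs. With 3 libraries a group, small changes of single members are near the limit of the test.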
